A study of Rattus norvegicus with 12 samples.

Results

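The levels of 10 interferon-induced genes, Dhx58, Oasl2, Ifi44l, Ifit2, Xaf1, Gbp4, Gbp5, Psmb9, Isg20 and Trim21, were examined in WT, VAMP7KO and ATG5KO NRK cells. They are 10 of the 20842 genes of the count table and were named in advance as symbols, each matched to its Ensembl identifier through the study's 2 lists of genes that differed from WT. Those lists were made from the same libraries, so the members were chosen by their measured values. Ifit2, Gbp5, Isg20 and Trim21 were chosen with their VAMP7KO values known. Dhx58, Oasl2, Ifi44l, Xaf1, Gbp4 and Psmb9 were listed for ATG5KO and not for VAMP7KO. In ATG5KO, 8 members stood above WT and Isg20 and Trim21 below it. At the threshold used below, Ifit2 and Gbp5 stood above WT in VAMP7KO, and Isg20 and Trim21 below it.

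NRK (Normal Rat Kidney) is a rat cell line that is labelled epithelial. WT cells are labelled wild type, VAMP7KO cells were edited with CRISPR/Cas9 in Vamp7, which encodes an R-SNARE of late endosomes and lysosomes, and ATG5KO cells in Atg5, which encodes a protein needed for autophagosome formation. Each genotype had 4 libraries of polyadenylated RNA, numbered 1 to 4 and described as independent experiments, from cells in complete growth medium with no interferon or other agent added. Knockout cells were sorted 1 cell to a well and amplified, so the differences of a knockout from WT and those of its founding cell cannot be told apart. In bulk RNA of this kind, fewer cells that express a gene and less RNA per cell cannot be told apart either.

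Between 21090858 and 31525111 reads were counted on genes in the 12 libraries. Levels below are TMM-normalized CPM (counts scaled to the library total), with the SD over the 4 libraries of a genotype, and differences are log2 fold changes of edgeR's quasi-likelihood fit over 13141 genes, with the standard error (SE). A gene is named as passing where the Benjamini-Hochberg adjusted p over all genes tested was under 0.05. Libraries 1 and 2 of each genotype separated from libraries 3 and 4. For libraries of different genotypes, deviations from the genotype mean correlated across genes at -0.694 to -0.552 between these replicate sets and at 0.536 to 0.691 within them. Values are therefore also given by set. The targeted transcript Vamp7 stood at 111.1 ± 3.26 CPM in WT, 46.2 ± 5.17 CPM in VAMP7KO and 128.2 ± 2.15 CPM in ATG5KO. Atg5 was not analysed here, as no list at hand pairs it with an identifier. Krt8, a keratin of simple epithelia, was present in all genotypes, and the other defining epithelial genes Epcam and Cdh1 had no known identifier. Other epithelial markers in WT stood at 247.9 (Aqp1), 1.22 (Cubn), 1.21 (Cdh16) and 0.187 CPM (Lrp2). Fibroblast markers in WT ran from 0.0662 (Dcn) to 858.5 CPM (Col1a1). These levels do not settle the cell type, and the study calls its cells both fibroblastic and epithelial.

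Interferons are secreted proteins that warn cells of infection. Type I interferons act through JAK kinases on promoters with the interferon-stimulated response element (ISRE), while interferon gamma acts on those with the gamma-activated site (GAS). IRF proteins activated by sensors of viral nucleic acid bind similar elements, so many of these genes can also be induced without interferon. The products include sensors that feed back on the pathway, enzymes that degrade viral RNA, proteins that block translation, GTPases that attack pathogen-containing vacuoles, and the machinery that cuts peptides for MHC class I. Most cells hold a low basal level of such transcripts.

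The promoters of the members are shown first, as the regulatory sequence in front of these genes. RefSeq promoters on the rat assembly GRCr8, from 250 bases before to 50 bases after the start site, were at hand for 8 of the 10 members, and not for Dhx58 and Ifit2. The ISRE core was searched as GAAA, any 2 bases, GAAA, and the GAS core as TTC, any 3 bases, GAA, each on both strands. An ISRE core was found in 7 of the 8 promoters, all but that of Psmb9. Of 33469 promoters of the same length in the RefSeq table, 3.92% held the ISRE core, 8.87% the GAS core and 0.514% both. Among 102 promoters of other genes in the interferon lists used below, 44 (43.1%) held the ISRE core and 21 (20.6%) the GAS core. The stretches that hold the matches are shown 5′ to 3′ on the strand of the gene, with each matched core in capitals and up to 20 bases on either side, ending at the start site.

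Oasl2, chr12:47383307-47383356, minus strand: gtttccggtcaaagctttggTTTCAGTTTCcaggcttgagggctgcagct
Ifi44l, chr2:243328612-243328693, plus strand: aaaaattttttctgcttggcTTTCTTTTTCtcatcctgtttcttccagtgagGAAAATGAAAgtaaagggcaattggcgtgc
Xaf1, chr10:57415904-57415934, plus strand: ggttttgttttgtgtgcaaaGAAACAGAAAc
Gbp4, chr2:233978456-233978485, plus strand: tcatctggcaagaagcagggTTTCGATTTC
Gbp5, chr2:233910923-233910972, plus strand: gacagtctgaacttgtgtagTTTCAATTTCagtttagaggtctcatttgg
Isg20, chr1:142239947-142239996, plus strand: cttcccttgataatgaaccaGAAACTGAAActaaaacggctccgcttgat
Trim21, chr1:166399372-166399409, minus strand: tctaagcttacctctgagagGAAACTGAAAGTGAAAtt

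The cores lay between -151 relative to the start site, in Oasl2, and -1, in Gbp4. Trim21 held 2 overlapping cores that form 1 run, and Ifi44l 2 separate ones. The 1 GAS core lay in Ifi44l, at -247 to -239 relative to the start site, in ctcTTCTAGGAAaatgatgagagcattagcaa (chr2:243328473-243328504, plus strand, the core in capitals). The ISRE core was held both by members above WT in ATG5KO and by Isg20 and Trim21, which were below it. A match describes the letters of the window, and binding was not measured.

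**Figure D1:**
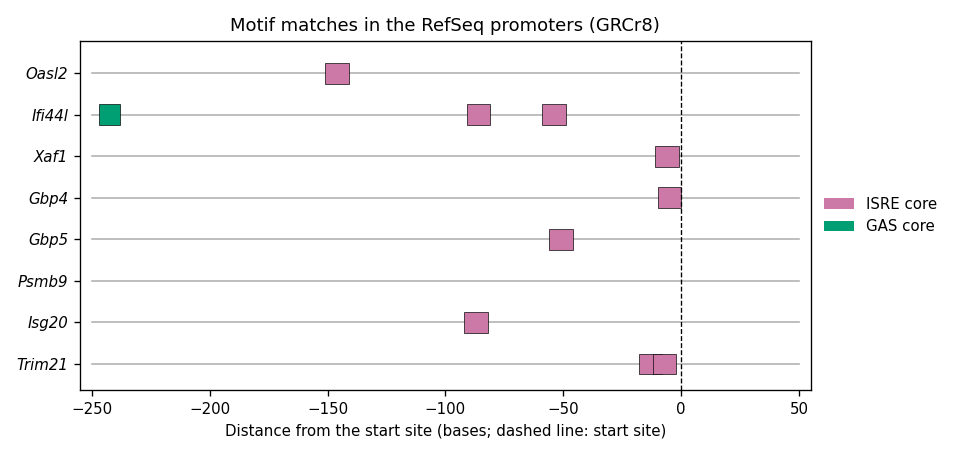
Position of each ISRE core and GAS core match, in bases from the start site, in the 8 promoters that were at hand; the grey line is the window searched, from 250 bases before to 50 bases after the start site. Matches of the ISRE core lie in all rows but that of Psmb9, all of them before the start site.

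Dhx58 encodes LGP2, an RNA helicase that modulates the viral RNA sensors RIG-I and MDA5, and is the only sensor among the members. In WT it stood at 1.05, 0.796, 0.230 and 0.0713 CPM in libraries 1 to 4, in VAMP7KO at 0.200, 0.724, 0.181 and 0.0823 CPM, and in ATG5KO at 9.66, 9.02, 3.84 and 4.79 CPM. All ATG5KO libraries lay above all others, while WT and VAMP7KO overlapped and both reached down to 2 counts in a library. Within WT, libraries 1 and 2 averaged 0.922 CPM and libraries 3 and 4 averaged 0.151 CPM, and within ATG5KO 9.34 and 4.32 CPM, so the level was lower in the second set on both sides of the comparison. The fitted log2 fold change was 3.83 (SE 0.402) for ATG5KO against WT and -0.84 (SE 0.512) for VAMP7KO against WT.

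Oasl2, an OAS-like protein of antiviral defence, had a steadier level in ATG5KO. Its libraries stood at 1.15, 0.9004, 0.657 and 0.571 CPM in WT, at 0.668, 0.860, 1.05 and 1.03 CPM in VAMP7KO, and at 7.01, 7.59, 8.26 and 8.16 CPM in ATG5KO. The ATG5KO group was apart from the others, and VAMP7KO lay below WT in libraries 1 and 2 and above it in libraries 3 and 4. The log2 fold change was 3.23 (SE 0.245) in ATG5KO and 0.13 (SE 0.269) in VAMP7KO.

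Ifi44l is an interferon-induced protein that dampens antiviral signalling. It stood at 1.49, 1.45, 1.08 and 0.963 CPM in WT, at 0.802, 0.724, 0.614 and 1.11 CPM in VAMP7KO, and at 4.18, 4.44, 3.92 and 4.93 CPM in ATG5KO. The ATG5KO libraries lay above all others. VAMP7KO libraries 1 to 3 lay below every WT library and library 4 within their range. The log2 fold change was 1.80 (SE 0.216) in ATG5KO and -0.63 (SE 0.237) in VAMP7KO.

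Ifit2 encodes a protein with tetratricopeptide repeats that binds viral RNA and restrains its translation, and was the member raised to a similar extent in both knockouts. WT libraries 1 to 4 held 5.34, 5.85, 8.02 and 7.99 CPM, VAMP7KO libraries 23.6, 19.6, 16.6 and 17.9 CPM, and ATG5KO libraries 13.5, 14.1, 30.5 and 29.1 CPM. Every knockout library lay above every WT library, and the order of the knockouts turned between the sets: VAMP7KO was the higher one in libraries 1 and 2, and ATG5KO in libraries 3 and 4. With the sets together, the log2 fold change was 1.57 (SE 0.255) in VAMP7KO, 1.64 (SE 0.255) in ATG5KO and -0.07 (SE 0.247) for VAMP7KO against ATG5KO. Fitted by set, the last value was 0.66 in libraries 1 and 2 and -0.79 in libraries 3 and 4.

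Xaf1, a promoter of apoptosis that antagonizes the inhibitor XIAP, stood at 3.55, 3.01, 3.48 and 2.14 CPM in WT, at 2.24, 2.35, 2.38 and 2.67 CPM in VAMP7KO, and at 7.66, 7.28, 7.47 and 6.82 CPM in ATG5KO. ATG5KO was apart from the other genotypes, which overlapped through WT library 4. The log2 fold change was 1.27 (SE 0.165) in ATG5KO, where both sets had nearly equal means, 7.47 and 7.14 CPM. In VAMP7KO it was -0.32 (SE 0.172).

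Gbp4 and Gbp5 are guanylate-binding proteins, GTPases that assemble on pathogen membranes, and Gbp5 also promotes inflammasome assembly. Close relatives share this family, and how the counting treated reads that match several of them is not given in the sources used here. Gbp4 had few reads, 4, 4, 9 and 9 counts in WT, 2, 0, 14 and 3 in VAMP7KO and 20, 28, 13 and 19 in ATG5KO. In CPM these were 0.135, 0.139, 0.296 and 0.321 in WT, 0.0668, 0, 0.506 and 0.123 in VAMP7KO, and 0.929, 0.971, 0.467 and 0.875 in ATG5KO. ATG5KO lay above WT in all libraries, but its library 3 lay below library 3 of VAMP7KO. The log2 fold changes were 1.95 (SE 0.654) in ATG5KO and -0.36 (SE 0.780) in VAMP7KO. Gbp4 and Dhx58 passed the filter on low counts only through ATG5KO, so a difference of theirs from ATG5KO was built into being tested. The other 8 members were above the filter's limit in all 12 libraries.

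Gbp5 was the member with 3 separate levels. It stood at 4.32, 5.96, 2.89 and 3.995 CPM in WT, at 7.48, 6.83, 9.93 and 9.17 CPM in VAMP7KO, and at 12.5, 12.1, 13.8 and 14.4 CPM in ATG5KO. No library of one genotype reached the range of another, and the order was WT, VAMP7KO, ATG5KO in every replicate number. The log2 fold change was 0.97 (SE 0.215) in VAMP7KO, 1.62 (SE 0.214) in ATG5KO and -0.65 (SE 0.206) for VAMP7KO against ATG5KO.

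Psmb9, the catalytic subunit LMP2 of the immunoproteasome, which trims peptides for MHC class I, varied more by set than by knockout of Vamp7. It stood at 28.5, 31.4, 15.6 and 16.3 CPM in WT, at 34.6, 40.7, 16.8 and 21.0 CPM in VAMP7KO, and at 55.9, 61.8, 41.6 and 34.4 CPM in ATG5KO. Over all libraries ATG5KO lay above WT, and its library 4 was below library 2 of VAMP7KO. Within each replicate number, though, the order was WT, VAMP7KO, ATG5KO in all 4. The log2 fold change was 0.28 (SE 0.110) in VAMP7KO, 1.11 (SE 0.110) in ATG5KO and -0.83 (SE 0.110) for VAMP7KO against ATG5KO.

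Isg20 and Trim21 were the members whose mean was below WT in both knockouts. Isg20, an exonuclease that degrades single-stranded RNA, stood at 13.6, 16.1, 11.8 and 16.3 CPM in WT, at 7.48, 8.32, 10.5 and 8.43 CPM in VAMP7KO, and at 10.1, 7.77, 7.54 and 9.08 CPM in ATG5KO. The knockouts overlapped each other and lay wholly below WT, with log2 fold changes of -0.73 (SE 0.160) in VAMP7KO and -0.75 (SE 0.160) in ATG5KO.

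Trim21, a cytosolic antibody receptor and ubiquitin ligase, stood at 24.7, 23.3, 18.8 and 17.8 CPM in WT, at 12.2, 13.6, 11.01 and 12.1 CPM in VAMP7KO, and at 18.2, 15.8, 16.4 and 17.9 CPM in ATG5KO. VAMP7KO was the lowest genotype, apart from both others, while ATG5KO reached the range of WT libraries 3 and 4. The log2 fold change was -0.79 (SE 0.108) in VAMP7KO, -0.30 (SE 0.107) in ATG5KO, where it was -0.10 in libraries 3 and 4, and -0.49 (SE 0.109) for VAMP7KO against ATG5KO.

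**Figure D2:**
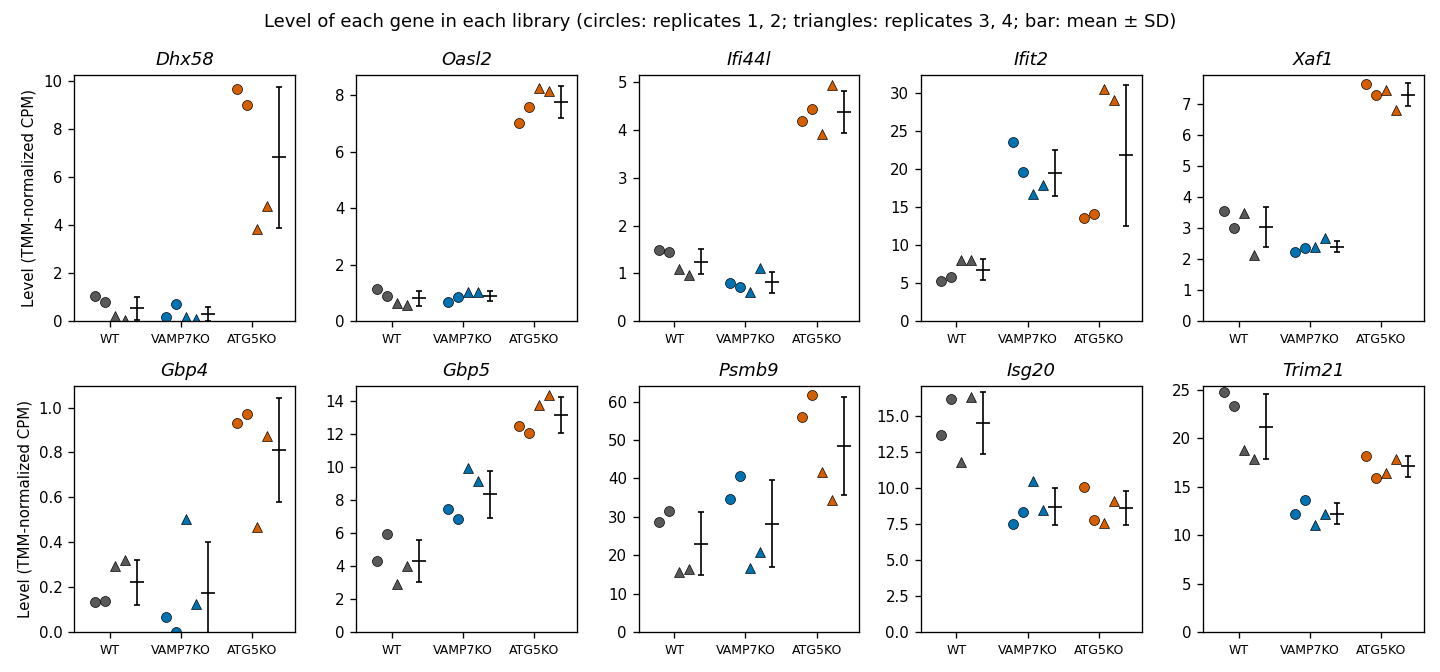
Level of each of the 10 genes in TMM-normalized CPM, on a linear axis from 0, by genotype and library; circles are replicates 1 and 2, triangles replicates 3 and 4, and the bar is the mean ± SD over 4 libraries (cut at 0 for Gbp4). ATG5KO points lie above WT for the 8 genes that this contrast chose. The share of all genes that separate in this way was not counted. Knockout points lie below WT for Isg20, and the ATG5KO points of Ifit2 form 2 groups by set.

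Counted over the members, 2 were higher and 2 lower in VAMP7KO than in WT at the threshold, and 6 did not pass, where 10.5% of all genes tested were higher and 12.3% lower. In ATG5KO, 8 members were higher than in WT and 2 lower, beside 23.6% higher and 22.7% lower among all genes. That contrast chose the 8 higher members, and Isg20 and Trim21 came through the VAMP7KO list, which shares the WT libraries. Nothing is therefore read from this count. Leaving out each library in turn, Gbp4 passed in 5 of 12 fits and Trim21 in 2, and Trim21 passed in 4 of the 8 other settings. In VAMP7KO against ATG5KO, none was higher (21.3% of all genes), 8 were lower (23.6%) and Ifit2 and Isg20 did not pass. This comparison shares the ATG5KO libraries that chose most of the members, and is a description.

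The 6 members not listed for VAMP7KO were left out of that list by the study on these same libraries, so their values in VAMP7KO against WT are a description as well. That none of them passed with all 12 libraries was largely fixed by the choice. Of the 6, Ifi44l and Psmb9 were farthest from 0 for their SE, and these 2 were the count with an unadjusted p under 0.05 in edgeR, as 2 were in DESeq2. Ifi44l was lower in 3 of 4 pairs of equal replicate number, with a log2 fold change of -0.63, or -0.85 without WT replicate 4. It passed in that fit and in replicates 1 and 2 only. Psmb9 was higher in 4 of 4 pairs, by 0.28 on the log2 scale. It passed with only the 2 genotypes, in replicates 1 and 2 only, without VAMP7KO replicate 3 and without ATG5KO replicate 3. The SEs of 0.512 for Dhx58 and 0.780 for Gbp4 are so wide that even a difference of 2-fold would lie within 2 SEs of no difference. These values do not show that VAMP7KO and WT were alike in the 6 genes.

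**Figure D3:**
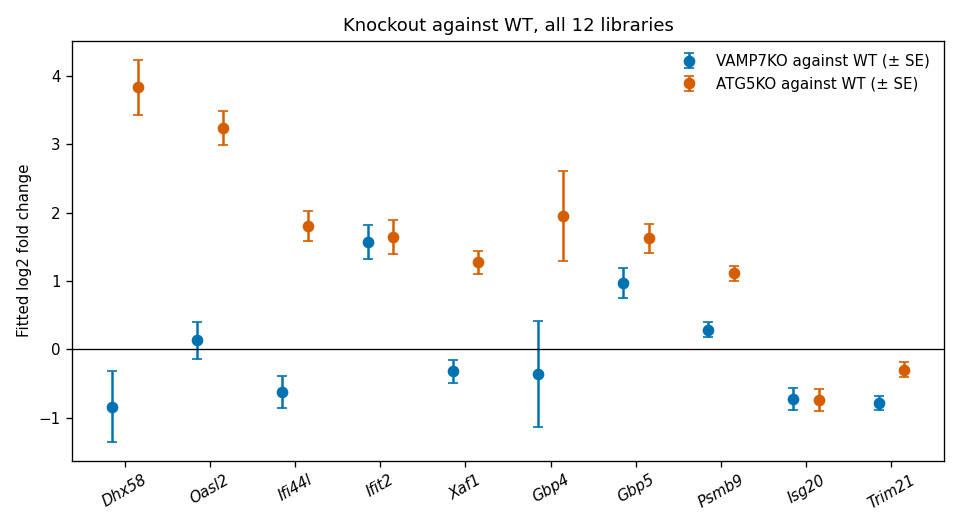
Fitted log2 fold change of each member against WT (points) with its SE (bars), for VAMP7KO and ATG5KO; both share the WT libraries. The points of the knockouts lie close together for Ifit2 (1.57 and 1.64) and Isg20 (-0.73 and -0.75) and farthest apart for Dhx58 (-0.84 and 3.83).

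The effect of each knockout was compared between the replicate sets, 3 and 4 against 1 and 2, by the interaction of genotype and set. In VAMP7KO, the effect on Ifit2 was smaller in the second set by 0.84 on the log2 scale (-0.84, SE 0.171, adjusted p = 0.00222) and that on Gbp5 larger by 0.99 (SE 0.245, adjusted p = 0.00917) (edgeR's interaction term, adjusted over all genes tested). So 1 member was higher and 1 lower, and among all genes 8.97% were higher and 7.5% lower. In ATG5KO, the effect was larger in the second set on Ifit2 (0.59, SE 0.172, adjusted p = 0.0155 from the same test) and on Gbp5 (0.78, SE 0.238, adjusted p = 0.0204). That is 2 members higher and none lower, beside 14.4% and 14.5% of all genes.

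Ifit2 and Gbp5, the members that passed as higher than WT in both knockouts, were thus also those whose interaction with the set passed. For Ifit2, WT averaged 5.595 CPM in libraries 1 and 2 and 8.00 CPM in libraries 3 and 4, VAMP7KO 21.6 and 17.3 CPM, and ATG5KO 13.8 and 29.8 CPM. The 3 genotypes thus took different courses: WT and ATG5KO were higher in the second set and VAMP7KO lower. For Gbp5, WT averaged 5.14 and 3.44 CPM, VAMP7KO 7.16 and 9.55 CPM, and ATG5KO 12.3 and 14.1 CPM, so that WT was lower and both knockouts were higher in the second set. The interactions of Gbp5 did not pass without WT replicate 2 (0.73 in VAMP7KO, 0.54 in ATG5KO) or without WT replicate 3 (0.78 and 0.60), and that in ATG5KO not without ATG5KO replicate 4 (0.76) either. The interaction of Ifit2 in ATG5KO did not pass without WT replicate 2 (0.54) or ATG5KO replicate 3 (0.56), and that in VAMP7KO passed in all 12 fits that each left out 1 library.

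For the other members the interaction did not pass in either knockout. Nearest to the threshold in ATG5KO were Oasl2 (0.90, SE 0.344, adjusted p = 0.0594) and Trim21 (0.40, SE 0.154, adjusted p = 0.0587), by edgeR's interaction term. Within each set, the difference of mean log2(CPM + 0.1) from WT kept its sign for all members in ATG5KO. It ran from 3.22 to 4.21 for Dhx58, from 2.73 to 3.54 for Oasl2, from 1.49 to 2.002 for Ifi44l and from 0.97 to 1.24 for Psmb9, the first value being that of libraries 1 and 2. For Trim21 it was -0.50 in the first set and -0.10 in the second, and for Isg20 -0.74 in both. In VAMP7KO the sign was kept by all members but Oasl2, at -0.38 and 0.67, whose interaction was 1.19 (SE 0.423, adjusted p = 0.0636 by edgeR).

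**Figure D4:**
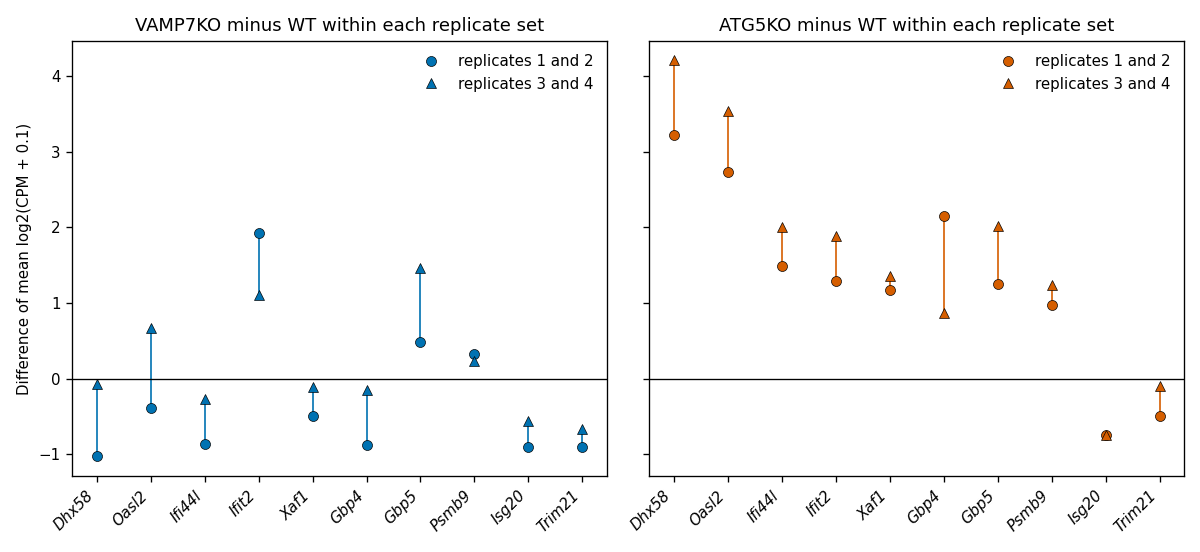
Difference of mean log2(CPM + 0.1) from WT within replicates 1 and 2 (circles) and within replicates 3 and 4 (triangles), for VAMP7KO (left) and ATG5KO (right), joined by a line for each member. Ifit2 falls from 1.92 to 1.10 in VAMP7KO and goes from 1.29 to 1.88 in ATG5KO, and Oasl2 crosses 0 in VAMP7KO.

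The other genes of the pathway were taken from lists by role, 144 genes in all. Besides the members, 35 of them had a known identifier and 31 were tested, and all of these had been chosen by the study as changed on these libraries, and their direction is not independent evidence. In VAMP7KO against WT, 1 was higher, 14 lower and 16 did not pass, with a median log2 fold change of -0.83 beside 0.0037 over all genes tested. In ATG5KO, 17 of them were higher than in WT, 10 lower and 4 did not pass, with a median of 1.23 beside 0.0078. Among all genes tested, 10.5% were higher and 12.3% lower in VAMP7KO, and 23.6% higher and 22.7% lower in ATG5KO. The same shares stand beside the counts by role below. Genes at the floor of 3 counts in 1 group were then set to their bound. For VAMP7KO against WT, 3 genes at the floor in both groups were left out. The medians became -0.90 in VAMP7KO and 1.23 in ATG5KO. By the interaction with the set, 8 of the 31 were higher and 1 lower in VAMP7KO, and equally in ATG5KO. Among all genes these were 8.97% and 7.5% in VAMP7KO, and 14.4% and 14.5% in ATG5KO.

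Of 3 other named sensors and signalling genes, none passed in VAMP7KO and all 3 were higher in ATG5KO. Tlr3, the endosomal receptor for double-stranded RNA, stood at 16.1 ± 5.03 CPM in WT (SD, n = 4), 15.0 ± 2.31 CPM in VAMP7KO and 44.2 ± 3.25 CPM in ATG5KO. Sting1, the adaptor that responds to cyclic dinucleotides made by cGAS, stood at 1.61 ± 0.437, 2.63 ± 0.442 and 9.68 ± 3.16 CPM. Its ATG5KO effect was smaller in the second set (interaction -1.39). The kinase gene Ikbke stood at 10.5 ± 5.44, 6.89 ± 1.48 and 34.4 ± 18.3 CPM. The interaction also passed for Tlr3 in ATG5KO, at 0.63, and for Ikbke in VAMP7KO, at 0.90. Of ligands and receptors, Ifne, a type I interferon of epithelia, was lower in both knockouts (1.14 ± 0.202 CPM in WT, 0.356 ± 0.137 in VAMP7KO, 0.249 ± 0.195 in ATG5KO). Ifnlr1, a subunit of the interferon lambda receptor, was at the floor in WT and VAMP7KO and at 1.22 ± 0.465 CPM in ATG5KO, at least 11.9-fold higher than the floor of WT.

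Among the 12 other antiviral effectors tested, 1 was higher and 5 lower in VAMP7KO, and 8 higher and 1 lower in ATG5KO. Lgals3bp and Parp10 had log2 fold changes of 1.49 (SE 0.117) and 1.23 (SE 0.118) in ATG5KO, and did not pass in VAMP7KO. Tmem140 was the effector higher in both, at 1.05 (SE 0.198) and 2.09 (SE 0.197). Rnf213 and Uba7, the latter the activating enzyme for ISG15, were lower in VAMP7KO, at -1.46 (SE 0.224) and -0.83 (SE 0.164). Neither passed in ATG5KO. Rnf213 in WT averaged 438.0 CPM in libraries 1 and 2 and 213.2 CPM in libraries 3 and 4. Its interaction with the set passed in both knockouts, at 1.29 in VAMP7KO and 0.83 in ATG5KO. Mx1 was lower in both knockouts, and was the 1 effector lower in ATG5KO. Its WT level was 20.1 CPM in libraries 1 and 2 and 2.14 CPM in libraries 3 and 4.

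Of 2 other GTPases, Ifi47 had a log2 fold change of 2.08 (SE 0.185) in ATG5KO and did not pass in VAMP7KO, and Gvin1 was lower in both knockouts. Of 3 chemokines and cytokines, Il15 was lower in both knockouts, in which it was at the floor, and its receptor subunit gene Il15ra was higher in ATG5KO, at 1.68 ± 0.492 CPM against 0.3495 ± 0.103 CPM in WT (SD, n = 4).

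Of 9 genes of antigen processing besides Psmb9, 6 were lower and none higher in VAMP7KO, and 3 were higher and 6 lower in ATG5KO. The 6 were the class II genes RT1-Ba, RT1-Bb, RT1-Da, RT1-Db1 and RT1-DMb and the invariant chain Cd74, in both knockouts. RT1-Db1 stood at 15.9 ± 5.10 CPM in WT (SD, n = 4), 0.356 ± 0.133 CPM in VAMP7KO and 3.51 ± 0.696 CPM in ATG5KO. The 3 that were higher in ATG5KO were Ctss, the class II pathway protease cathepsin S, which was at the floor in WT, and the class I genes RT1-N2 and RT1-S3, with log2 fold changes of 3.64 (SE 0.388) and 1.89 (SE 0.418). RT1 genes have near-identical copies, and their counts are uncertain to that extent. Markers of other cells moved with the genotypes. The summed level of 9 of 15 leukocyte markers that had an identifier was 83.1 to 169.8 CPM in WT, 48.8 to 60.3 CPM in VAMP7KO and 52.2 to 60.1 CPM in ATG5KO, with Ptprc, which encodes CD45, at 7.70 ± 5.45 CPM in WT, at 0 in VAMP7KO and at the floor in ATG5KO. That sum is mostly Cd14, and the members of the list went both ways: of 8 tested, 4 were lower and Cd3e higher in VAMP7KO, and 4 were lower and Lcp1, Lcp2 and Csf1r higher in ATG5KO. The sum over 7 of 14 fibroblast markers was 523.2 to 1450 CPM in WT, 1044 to 3166 CPM in VAMP7KO and 2177 to 3952 CPM in ATG5KO. Fap, which was not tested, was at 0 in both knockouts, and Postn at 0 in ATG5KO. Of the 6 tested, 4 were higher and none lower in VAMP7KO, and 5 were higher and Postn lower in ATG5KO. For 5 of 13 epithelial markers the sum was 815.0 to 1207 CPM, 464.2 to 574.1 CPM and 566.6 to 818.4 CPM, with none at 0, and it is mostly Krt8 and Aqp1. Of these 5, Krt8, Cdh16 and Aqp1 were lower in VAMP7KO, while in ATG5KO Aqp1 was lower and Lrp2 (log2 fold change 2.18) and Cubn (1.90) were higher. Their part in the results was not tested.

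**Figure D5:**
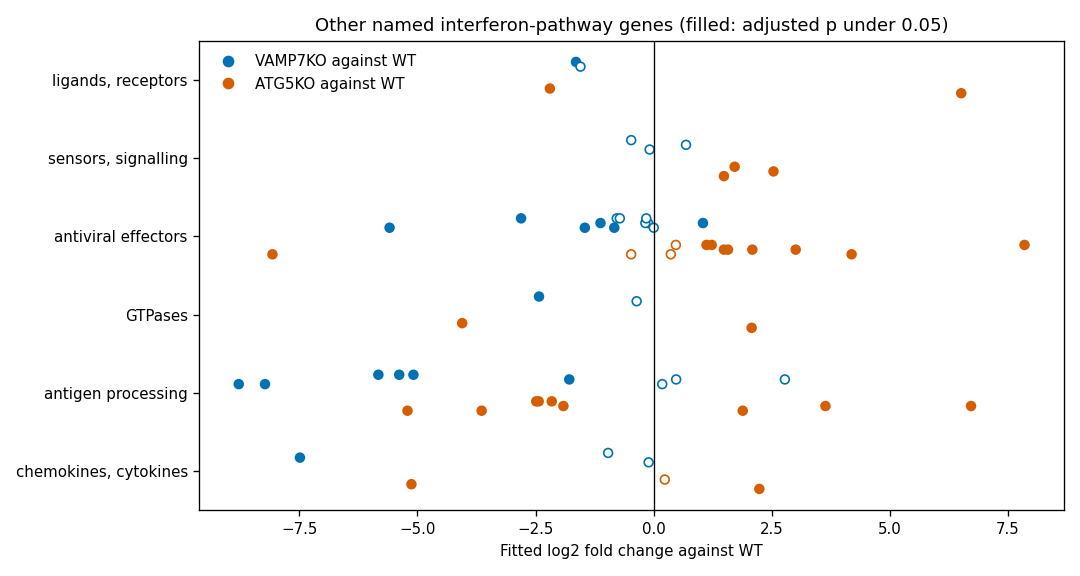
Fitted log2 fold change against WT of the 31 other interferon-pathway genes tested, by role, for VAMP7KO and ATG5KO; filled points have an adjusted p under 0.05. All genes were listed by the study as changed, and fitted values beyond about 5 belong mostly to genes at or near the floor in a group. The 3 sensors and signalling genes are filled above 0 for ATG5KO and open for VAMP7KO.

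Among themselves, the members fell apart by how their log2(CPM + 0.1) ran over the 12 libraries, which is given as a description, since the points share libraries and genotypes. Dhx58, Oasl2, Ifi44l and Xaf1 had Pearson r between 0.908 and 0.968 for every pair of them. Ifit2 had an r of 0.756 with Gbp5 and between 0.244 and 0.479 with those 4, and r was -0.866 between Ifit2 and Isg20. Isg20 and Trim21 had an r of 0.647.

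Of 1304 other named genes with a mean of at least 1 CPM, those with the highest r over the same 12 libraries were Tmem198b (0.979) and Arhgap27 (0.978) for Dhx58, Amz1 (0.991) and RGD1307595 (0.989) for Oasl2, and Des (0.987) and Efs (0.977) for Ifi44l. For Xaf1, Cdh18 (0.976) is given, and for Psmb9 they were Sumf2 (0.985) and Map2k6 (0.976). RGD1307595 was at the floor in every WT and VAMP7KO library, and Efs and Cdh18 in every VAMP7KO library. Efs was also at the floor in 3 WT libraries and Cdh18 in 2. For these genes r mostly sets ATG5KO against values at or near the floor. The candidates can only be genes that the study listed, so likeness to genes outside those lists was not examined. For Ifit2 they were Pla2g4a (0.966) and Col12a1 (0.960), for Gbp5 Map9 (0.958) and Apc2 (0.939), and for Gbp4 Cxcl3 (0.930) and Rab15 (0.927). The genes most alike to Isg20 were Mysm1 (0.954) and Nfat5 (0.933), and to Trim21 Golm1 (0.977) and Trim47 (0.961).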

How the data were processed

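RNA-seq of 12 libraries of NRK cells, 4 each of WT, VAMP7KO and ATG5KO, was analysed from the deposited table of read counts per gene. The authors trimmed reads with cutadapt, removed rRNA reads with bowtie, aligned what remained with STAR to the assembly mRatBN7.2 and used htseq-count on Ensembl genes, so the values are raw counts without normalization. A separator missing from the header was restored by position, and genotype and replicate number were taken from the labels.

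The counts as deposited were tested with edgeR 4.0.16 in R 4.3.3 (glmQLFit and glmQLFTest), after TMM normalization; filterByExpr left 13141 genes. The fit held all 12 libraries, blocked by replicate number, as the study adjusted for a batch effect. The interaction of genotype and set (replicates 1 and 2, or 3 and 4) was fitted without the block. The sets were chosen since values printed in the study's lists already separated them. Libraries of equal number deviated from their genotype's mean together (r of 0.571 to 0.691 in 12 pairs), as did libraries of the same set with unequal numbers and genotypes (0.536 to 0.689). The pairing by number therefore comes from the data, and the set gives it as well.

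The members, gene lists, sets and tests were chosen with earlier results of these data known. The 10 members are named in full, pathway genes where they passed in either knockout, and the 2 named genes most alike to each member (r of at least 0.9); 1 gene that these rules name is not reported here. Symbols came from the study's lists of changed genes, of which 1 was read in part, and name 1976 genes. A library with 3 counts or fewer was taken as at the floor, and bounds against the floor, set per library, cover counting error only. Level differences by set used a pseudocount of 0.1 CPM. The alternatives were DESeq2's size factors, the DESeq2 1.42.0 Wald test, no filter, no block, the set as block, fewer genotypes or sets, CPM without TMM and each library left out. Promoters were scanned with Python 3.11.15. The fit was tested on simulated data.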

Additional observations from a re-analysis of the deposited data

Results flagged for a closer look

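Knockout effects were unequal in the 2 replicate sets (libraries 1 and 2, and 3 and 4) for Ifit2 and Gbp5 by the interaction of genotype and set. The difference, second set minus first on the log2 scale, was -0.84 for Ifit2 and 0.99 for Gbp5 in VAMP7KO, and 0.59 for Ifit2 and 0.78 for Gbp5 in ATG5KO. Both knockouts were compared with the same WT libraries, and whether the change of Ifit2 between sets differed between VAMP7KO and ATG5KO was not tested. In 30 groups of 4 libraries, no library of a member stood apart from the others of its group by Dixon's criterion. With 4 libraries, which for some members split into pairs by set, this criterion can hardly flag one. It does not show that none stood apart.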

How the results depend on the processing

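Of 918 values of members under another setting, 830 kept their direction and side of the threshold, 45 kept the direction and no longer passed, 16 came to pass and 27 changed sign. Of the last, 1 passed with its new sign, Ifit2 in VAMP7KO against ATG5KO at 0.66 in replicates 1 and 2 only. The others were not past the threshold under either setting. They were Oasl2 in VAMP7KO against WT (-0.45 in replicates 1 and 2 only; -0.064 to 0.42 with 1 library left out), Gbp4 in VAMP7KO against WT (0.069 in replicates 3 and 4 only), Isg20 in VAMP7KO against ATG5KO (-0.15 in replicates 1 and 2 only; -0.17 to 0.15) and Ifit2 in the same comparison (-0.33 to 0.15). Of the interactions with the set, they were Isg20 in ATG5KO (0.012 with DESeq2's size factors, 0.00912 with the DESeq2 Wald test, 0.024 with no filter; -0.19 to 0.28), Psmb9 in VAMP7KO (-0.25 to 0.078) and Xaf1 in ATG5KO (-0.11 to 0.60). Without the replicate block, genes called fell from 3004 to 1024 for VAMP7KO against WT, from 6081 to 3102 for ATG5KO against WT and from 5903 to 2997 for VAMP7KO against ATG5KO, and the calls of Gbp4 and Trim21 in ATG5KO against WT and of Psmb9 in VAMP7KO against ATG5KO were lost. The replicate block changed no other member's call. VAMP7KO against WT gave 5249 genes in replicates 1 and 2 only and 5173 in replicates 3 and 4 only, from fits of 6 libraries. Leaving out 1 library gave 1923 to 3224 genes for VAMP7KO against WT (1923 without VAMP7KO replicate 1, 1954 without WT replicate 1) and 1312 to 2722 for its interaction with the set (1312 without VAMP7KO replicate 3, 1335 without WT replicate 3 and 1419 without WT replicate 4; 2165 with all). Members whose interaction passed then numbered 1 to 2 in VAMP7KO and 0 to 5 in ATG5KO, against 2 and 2. The 5 were reached without VAMP7KO replicate 1 or 2, where Dhx58, Oasl2 and Trim21 came to pass, and the 0 without WT replicate 2. Among all genes, the interaction in ATG5KO passed for 3798 with all libraries. More passed without VAMP7KO replicate 1 or 2, and fewer without WT replicate 2. Each such fit leaves 1 library of that genotype in that set, and nothing is read from these counts of members. Gbp4 in ATG5KO against WT passed in 5 of the 12 fits that left out 1 library, and Trim21 in 2. In VAMP7KO against ATG5KO, Gbp4 passed in 7 of them and Gbp5 in 6. With only the 2 genotypes, Dhx58 and Gbp4 were not kept by the filter in VAMP7KO against WT. Where no cause is named, the cause was not tested. The low counts of Dhx58 and Gbp4 limit what these libraries can show.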
